A study of Mus musculus with 4 samples.

Results

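The 33 genes described here encode the protein-folding machinery of the endoplasmic reticulum (ER) and the transcripts that cells change when that compartment, or the supply of amino acids, comes under stress. They were taken by symbol from a list of unfolded protein response genes and targets of the transcription factor ATF4, and all 33 were found among the 23312 genes of the deposited tables. RNA sequencing was done on B220+CD43+ pro-B cells sorted from bone marrow of C57BL/6 mice, with 2 libraries from Cnot3 fl/fl mice and 2 from Cnot3 +/+ mice. CNOT3, the product of the targeted gene, belongs to the CCR4-NOT complex, which shortens the poly(A) tails of mRNAs and so starts their decay. All mice of both genotypes carried RERTCre, a Cre recombinase switched on by tamoxifen, and all received 1 mg tamoxifen on days 1, 2, 4 and 7 before analysis on day 10. The design text speaks of individual replicates of each genotype but does not say if a library came from 1 mouse or several, so p-values measure the spread between these libraries. The labels give neither the ages of the mice nor the cells in which RERTCre acts, so effects of deletion outside the pro-B cells cannot be told apart from effects within them.

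The ER folds membrane and secreted proteins with the help of the chaperones BiP and GRP94, the lectins calnexin and calreticulin, and protein disulfide isomerases. When unfolded proteins build up, the sensors IRE1, PERK and ATF6 start the unfolded protein response: IRE1 splices the mRNA of XBP1, ATF6 is cut to a transcription factor, and PERK phosphorylates the translation factor eIF2. Phosphorylated eIF2 lowers translation in general but favours that of ATF4, a route shared with other stress kinases and known as the integrated stress response. In the B lineage this machinery is best known for its expansion in plasma cells, which secrete antibody.

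Across the 11017 genes tested, Pearson r between libraries was 0.980 within Cnot3 fl/fl, 0.963 within Cnot3 +/+ and 0.945 to 0.953 between genotypes. The files hold no counts, so the absolute depth is unknown. The lowest values gave relative depths of 0.956 and 1 for Cnot3 fl/fl and of 0.746 and 0.899 for Cnot3 +/+ replicates 1 and 2. The level of Cnot3 over the whole gene was 39.0 and 40.3 FPKM (fragments per kilobase of transcript, scaled to the mapped fragments of the library) with Cnot3 fl/fl against 41.6 and 39.3 FPKM with Cnot3 +/+, which does not check the genotype labels because the deleted exons are not named. Cnot3 +/+ replicate 1 stood apart in sex-linked transcripts, with Xist at 0.024 FPKM against 54.3 to 63.1 FPKM in the others. Of 16 early B-lineage markers, such as Cd79a and Dntt, all were detected and summed to 1158 and 1087 FPKM with Cnot3 fl/fl against 1309 and 1633 FPKM with Cnot3 +/+, and 5 of them fell (Benjamini-Hochberg adjusted p under 0.05 in limma, a linear model with shared variances). The 5 were Vpreb1, Vpreb3, Igll1, Pax5 and Cd79a. Their means were 8.55, 19.8, 15.4, 11.1 and 64.3 FPKM with Cnot3 fl/fl against 98.6, 114.9, 109.7, 28.2 and 131.3 FPKM with Cnot3 +/+. The libraries also held 12 markers of plasmacytoid dendritic cells, which summed to between 8857 and 10587 FPKM, so the values below are those of the sorted population. In such bulk samples fewer cells of a type and less RNA per cell cannot be told apart.

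The ER folding genes were among the abundant transcripts of these cells, and 3 members passed the test between the genotypes. In the test across all genes 28 of the 33 members had a mean of at least 1 FPKM and entered the fit. The calnexin gene Canx, the mannosidase-like gene Edem1 and the co-chaperone gene Dnajc3 fell in Cnot3 fl/fl libraries, 3 of 28 members, against 3.28% of all genes tested. No member rose, against 6.22% of all genes tested, and at an unadjusted p under 0.05 limma gave 0 members higher and 8 lower, against 18.5% and 15.3% of all genes tested. The authors' deposited table marked Canx and Edem1 as significant and no member as higher, where 2.51% of its 12154 tested genes were lower and 4.08% higher. Values from Cnot3 fl/fl mice were lower than each Cnot3 +/+ value in 12 of the 28 members, against 31.7% of all genes tested, and higher than each in 0, against 32.7%. The fitted log2 fold change was below 0 in 21 of the 28, against 51% of all genes tested. Its median over the tested members was -0.20, beside -0.01 over all genes tested. With any 1 library left out no member passed, where the whole table gave at most 18 calls in 1 direction, and the members' median lay between -0.44 and -0.06.

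**Figure D1:**
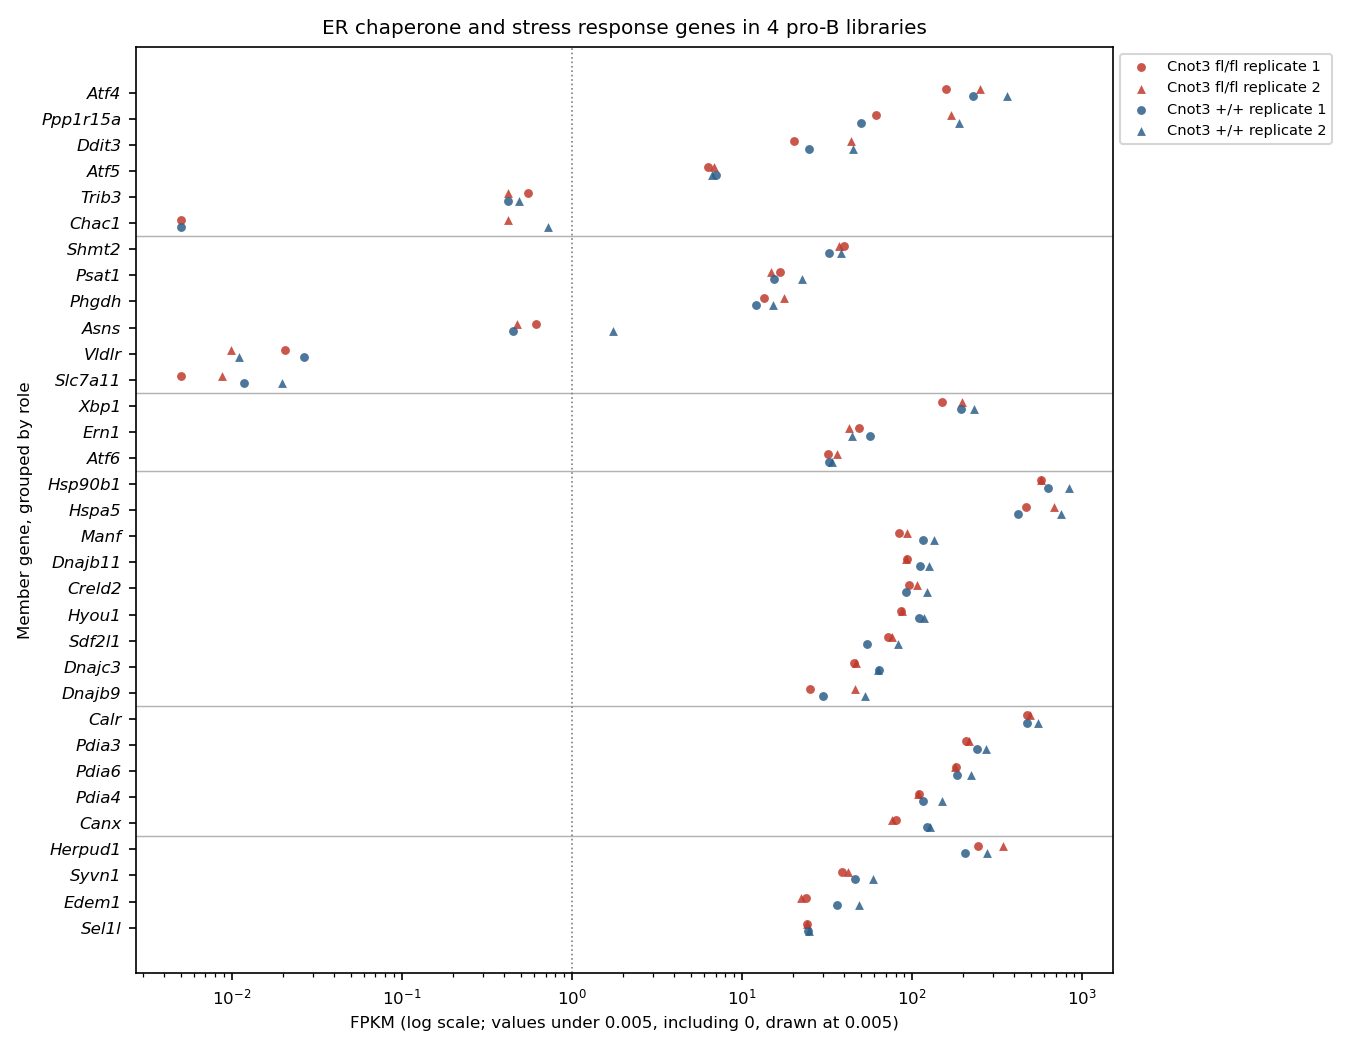
FPKM of all 33 member genes in each of the 4 libraries on a log scale, grouped by role; red marks Cnot3 fl/fl, blue Cnot3 +/+, circles replicate 1 and triangles replicate 2, and the dotted line stands at 1 FPKM. Most chaperone genes lie near or above 100 FPKM, whereas Trib3, Chac1, Vldlr and Slc7a11 lie below 1 FPKM in every library.

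**Figure D2:**
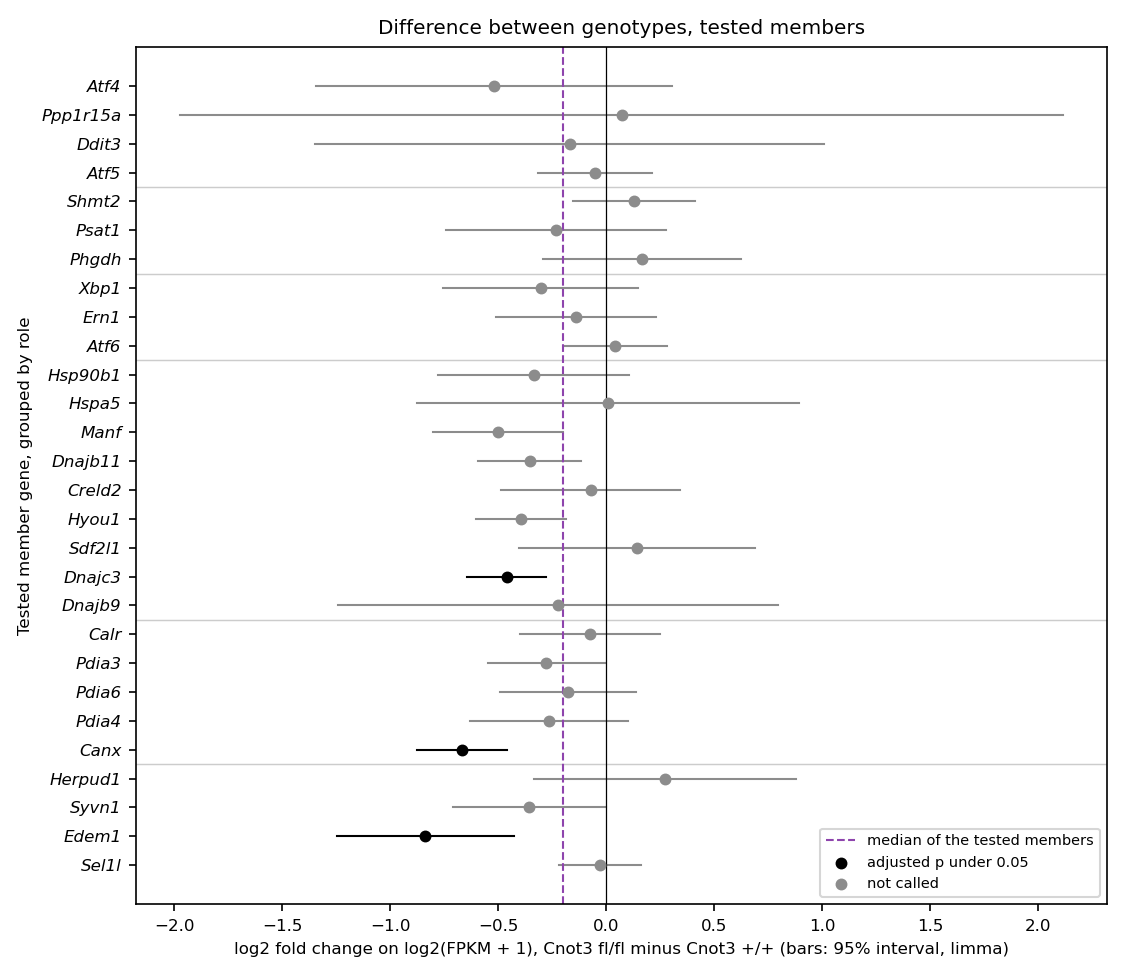
Log2 fold change on log2(FPKM + 1), Cnot3 fl/fl minus Cnot3 +/+, for the 28 tested members with the 95% interval from limma; black marks an adjusted p under 0.05 and the dashed line the median of -0.20. Canx, Edem1 and Dnajc3 are the members in black, and the widest intervals belong to Ppp1r15a, Ddit3, Dnajb9, Hspa5 and Atf4.

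The sensors and their transcription factors did not pass the test. Atf6, the ER-bound factor that is released by cleavage, was at 32.1 and 36.2 FPKM with Cnot3 fl/fl against 32.5 and 33.7 FPKM with Cnot3 +/+. Its log2 fold change of 0.04 had a 95% interval of -0.20 to 0.28, so a change beyond 1.22-fold up or 0.872-fold down lay outside that interval. Ern1, which encodes IRE1, was at 48.5 and 42.4 against 56.3 and 44.6 FPKM. The genotypes overlapped in both genes. Xbp1, the target of IRE1 and a factor that drives chaperone genes, was at 149.8 and 196.9 against 194.2 and 232.0 FPKM, with a log2 fold change of -0.30 and an interval of -0.75 to 0.15 (limma adjusted p = 0.28). With 1 library left out the value for Xbp1 lay between -0.50 and -0.11. Gene-level values do not separate spliced from unspliced Xbp1 mRNA.

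The regulators of the integrated stress response varied more between libraries of 1 genotype than between genotypes. Atf4 was at 159.1 and 250.8 FPKM with Cnot3 fl/fl against 227.8 and 360.9 FPKM with Cnot3 +/+, replicate 1 first. Ddit3, which encodes the factor CHOP, was at 20.2 and 43.6 against 24.8 and 45.2 FPKM. Ppp1r15a, which encodes GADD34, the phosphatase subunit that reverses eIF2 phosphorylation, was at 61.4 and 169.9 against 50.2 and 187.7 FPKM. In these 3 genes the library numbered 2 was the higher one in both genotypes and the genotypes overlapped. Their log2 fold changes were -0.52, -0.17 and 0.07, with 95% intervals of -1.34 to 0.31, -1.35 to 1.01 and -1.97 to 2.12, so the 4 libraries bounded the genotype difference of Ppp1r15a only loosely. With 1 library left out Atf4 lay between -0.85 and -0.19. Compared at the same replicate number, the Cnot3 fl/fl library was the lower one at both numbers in Atf4 and Ddit3, but only at number 2 in Ppp1r15a. A fit with the replicate number as a block gave Atf4 a limma adjusted p of 0.0504, which did not pass. The locus given for Ddit3 overlaps that of Mars, the methionyl-tRNA synthetase gene, so its value may include shared reads. Atf5, a factor translated under the same control as ATF4, was near 7 FPKM in all libraries, between 6.32 and 7.00 FPKM, with an interval of -0.32 to 0.21. Trib3, a pseudokinase gene induced by CHOP, lay between 0.421 and 0.551 FPKM, and Chac1, which encodes a glutathione-degrading enzyme, was listed at 0 in both libraries numbered 1 and at 0.423 and 0.720 FPKM in those numbered 2.

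A rule chosen after these values were seen counted tested genes in which replicate 2 was at least 1.5-fold above replicate 1 in both genotypes. It held for Atf4, Ddit3, Ppp1r15a and the co-chaperone gene Dnajb9, 4 of 28 members, and for 1.48% of all genes tested. The ratios were 1.58 and 1.58 for Atf4, 2.16 and 1.82 for Ddit3, 2.77 and 3.74 for Ppp1r15a, and 1.84 and 1.77 for Dnajb9, in Cnot3 fl/fl and Cnot3 +/+ respectively. For Hspa5 they were 1.45 and 1.77. The reverse order, replicate 2 at least 1.5-fold below replicate 1 in both genotypes, held for 0 tested members and 0.617% of all genes tested. In the same libraries 14 immediate-early genes summed to 1975 and 5348 FPKM with Cnot3 fl/fl against 2112 and 5023 FPKM with Cnot3 +/+ (replicates 1 and 2), and 12 of the 14 met the same rule. Their part in the values of the stress response genes was not tested. The labels name no extraction or sequencing batch that the numbers could stand for.

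**Figure D3:**
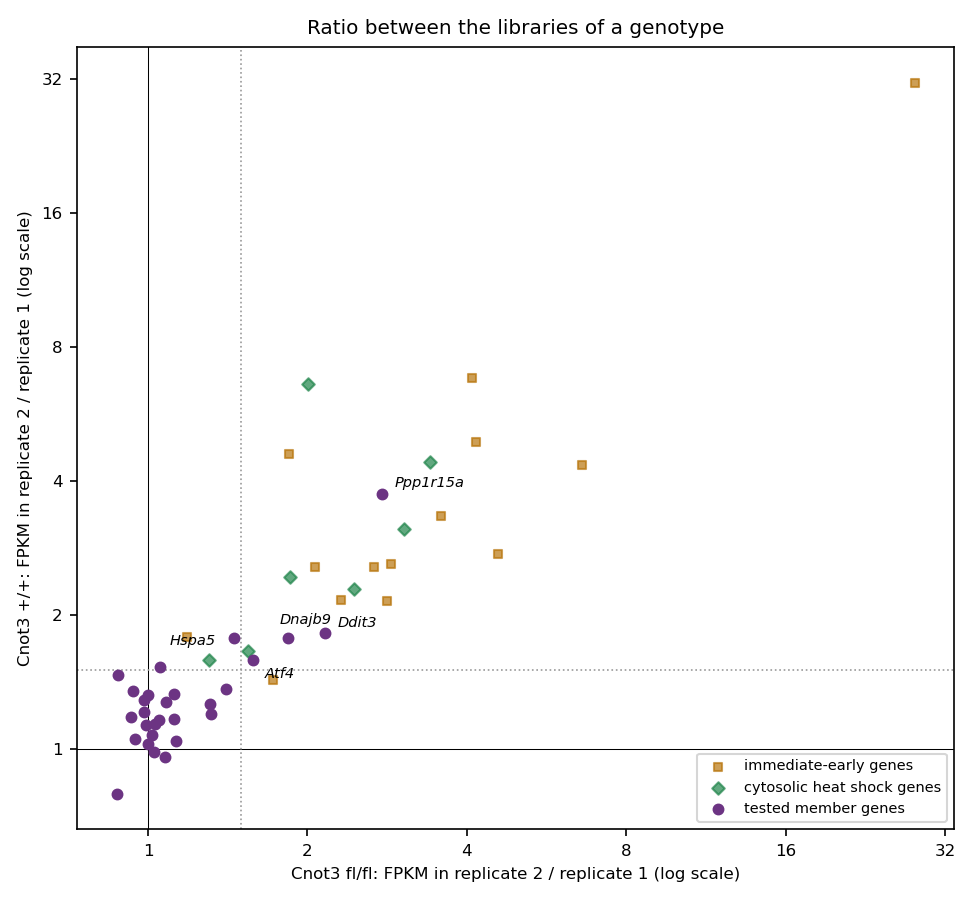
Ratio of FPKM in replicate 2 to replicate 1 within Cnot3 fl/fl (x axis) and within Cnot3 +/+ (y axis), both log scales, for the 28 tested members and for immediate-early and cytosolic heat shock genes; dotted lines stand at 1.5. Atf4, Ddit3, Ppp1r15a and Dnajb9 lie beyond 1.5 on both axes, and most other members lie near 1.

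Genes that ATF4 drives in amino acid supply held both expressed and near-silent members. Phgdh and Psat1, which encode the first enzymes of serine synthesis, were at 13.5 and 17.7 against 12.2 and 15.3 FPKM and at 16.8 and 14.8 against 15.5 and 22.6 FPKM. Shmt2, a mitochondrial enzyme gene of serine and glycine exchange, was at 39.9 and 37.1 against 32.4 and 38.1 FPKM. The genotypes overlapped in all 3, the log2 fold changes were 0.17, -0.23 and 0.13, and the adjusted p-values (limma) were 0.54, 0.45 and 0.44. Asns, the asparagine synthetase gene, was at 0.613 and 0.473 against 0.453 and 1.75 FPKM, with Cnot3 +/+ replicate 2 apart from the rest. Slc7a11, the cystine importer gene, and Vldlr, a lipoprotein receptor gene, did not exceed 0.027 FPKM in any library. These 3 genes, with Trib3 and Chac1, were the 5 members under a mean of 1 FPKM, so limma did not test them. The authors' deposited table gave Asns and Trib3 q-values of 0.31 and 0.96 and held no test for Chac1, Slc7a11 and Vldlr.

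Promoters of 30 members were found by symbol in RefSeq's table for GRCm38.p6 (250 bases before to 50 after the start of transcription), the missing ones being Atf6, Hyou1 and Manf. The C/EBP-ATF response element (CARE), to which ATF4 binds, was searched as TGATGNAA on both strands. It was present in 6 of the 30 members, Trib3, Chac1, Asns, Slc7a11, Vldlr and Herpud1, and in 4.51% of 27025 genes with a promoter in the table, or 2.69% of the 8265 tested among them. The 5 members under a mean of 1 FPKM all held it, but so did Herpud1, at a mean of 266.3 FPKM. Outside the members it was present in 15 of 123 related genes, 12 of which were tested, among them Kdelr1, Gars and Aars at means of 100.4, 41.1 and 22.2 FPKM, so genes with the element spanned low and high levels. The sites of all 6 members are shown to let their letters be compared, with the fixed letters of the element in capitals, read 5′ to 3′ in the direction of the element, and coordinates on GRCm38.p6.
Trib3, chr2:152344034-152344051: ccggcTGATGtAAacctg
Chac1, chr2:119351044-119351061: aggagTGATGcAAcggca
Asns, chr6:7693220-7693237: ccacaTGATGaAActtcc
Slc7a11, chr3:50443667-50443684: gtggcTGATGcAAacctg
Slc7a11, chr3:50443648-50443665: catgaTGATGcAAattct
Vldlr, chr19:27216815-27216832: agcgcTGATGcAActatt
Herpud1, chr8:94386312-94386329: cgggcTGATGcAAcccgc
A match describes these letters only and is no measure of binding.

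Among the chaperones, the abundant BiP and GRP94 genes did not pass the test, and Dnajc3, a partner of BiP, fell. Dnajc3, which encodes the co-chaperone p58IPK, was at 45.5 and 46.6 FPKM with Cnot3 fl/fl against 64.4 and 63.2 FPKM with Cnot3 +/+. The genotypes did not overlap, and the mean of 46.1 ± 0.795 FPKM (SD, n = 2) was 27.8% below the Cnot3 +/+ mean of 63.8 ± 0.787 FPKM (SD, n = 2), with a log2 difference of -0.46, a standard error of 0.07 and limma adjusted p = 0.040. With 1 library left out its log2 fold change stayed between -0.48 and -0.44 and its adjusted p between 0.098 and 0.22, and the authors' deposited table gave it a q-value of 0.17. Hspa5, which encodes BiP, was at 469.2 and 682.2 against 422.4 and 747.8 FPKM, and its log2 fold change of 0.01 had an interval of -0.87 to 0.89. In each genotype the library numbered 2 was the higher one, and the genotypes overlapped. Hsp90b1, which encodes GRP94, was at 574.4 and 574.8 against 631.3 and 833.5 FPKM (log2 fold change -0.34, limma adjusted p = 0.24). Here the Cnot3 fl/fl libraries were nearly equal and both lower, while the Cnot3 +/+ libraries stood apart from each other. The difference was -0.06 with quantile normalization and -0.14 without Cnot3 +/+ replicate 2.

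Other partners of BiP lay lower in Cnot3 fl/fl libraries without passing the test. Manf, a secreted stress factor that binds BiP, was at 83.4 and 93.5 against 116.3 and 135.3 FPKM (log2 fold change -0.50, limma adjusted p = 0.061). Hyou1, the nucleotide exchange factor of BiP, was at 85.7 and 87.4 against 110.2 and 118.4 FPKM (log2 fold change -0.40, limma adjusted p = 0.051). Dnajb11, a co-chaperone gene, was at 93.0 and 92.4 against 111.8 and 126.2 FPKM (log2 difference -0.35, limma adjusted p = 0.075). The genotypes did not overlap in these 3 genes. Creld2, Sdf2l1 and Dnajb9, other ER stress-induced genes, overlapped between genotypes. Creld2 was at 95.7 and 107.0 against 92.4 and 122.5 FPKM, Sdf2l1 at 72.3 and 76.3 against 54.4 and 82.9 FPKM, and Dnajb9 at 25.0 and 46.0 against 29.9 and 53.0 FPKM, with log2 fold changes of -0.07, 0.14 and -0.22.

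Of the lectin chaperones, which hold glycoproteins during folding, Canx fell and Calr did not pass the test; the difference between them was not tested. Canx was at 80.7 and 76.2 FPKM with Cnot3 fl/fl against 122.1 and 128.4 FPKM with Cnot3 +/+. The genotypes did not overlap, and the mean of 78.4 ± 3.14 FPKM (SD, n = 2) was 37.4% below the Cnot3 +/+ mean of 125.3 ± 4.40 FPKM (SD, n = 2), with a log2 difference of -0.67, a standard error of 0.08 and limma adjusted p = 0.033. The authors' deposited table gave Canx a q-value of 0.035. Without Cnot3 fl/fl replicate 1 or 2 its adjusted p was 0.20 and 0.21, and without Cnot3 +/+ replicate 1 or 2 it was 0.092 and 0.10, while the log2 fold change stayed between -0.71 and -0.63. Calr, which encodes the soluble homologue calreticulin, was at 472.4 and 496.4 against 473.8 and 549.8 FPKM, with overlapping genotypes, an interval of -0.40 to 0.25 and a log2 fold change of -0.08 that turned to 0.05 with quantile normalization. The disulfide isomerase genes Pdia3, Pdia4 and Pdia6 were all lower in both Cnot3 fl/fl libraries but did not pass. Pdia3, the isomerase that works with the lectins, was at 208.3 and 215.0 against 240.6 and 273.6 FPKM (log2 fold change -0.28, limma adjusted p = 0.14). Pdia4 was at 110.4 and 108.6 against 116.1 and 149.6 FPKM and Pdia6 at 181.4 and 178.1 against 184.6 and 223.6 FPKM, with log2 fold changes of -0.27 and -0.18. Without Cnot3 +/+ replicate 2 the log2 fold changes of Pdia4 and Pdia6 were -0.08 and -0.04. The loci given for Pdia6, Syvn1 and Shmt2 overlap those of Atp6v1c2, Mrpl49 and Ndufa4l2, and that of Atf5 overlaps Nup62 and Il4i1 among others.

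In ER-associated degradation, which returns misfolded proteins to the proteasome, Edem1 fell and the others did not pass. Edem1 encodes a lectin that picks out glycoproteins for disposal, and it was at 23.8 and 22.3 FPKM with Cnot3 fl/fl against 36.2 and 48.7 FPKM with Cnot3 +/+. The genotypes did not overlap, and the mean of 23.1 ± 1.08 FPKM (SD, n = 2) was 45.6% below the Cnot3 +/+ mean of 42.4 ± 8.82 FPKM (SD, n = 2), with a log2 difference of -0.84, a standard error of 0.16 and limma adjusted p = 0.045. The authors' deposited table gave Edem1 a q-value of 0.0022. Its log2 difference came to -1.05 when Cnot3 +/+ replicate 1 was dropped (limma adjusted p = 0.080) and to -0.63 without Cnot3 +/+ replicate 2 (limma adjusted p = 0.10). It was -0.88 and -0.79 without Cnot3 fl/fl replicate 1 or 2 (limma adjusted p = 0.21 and 0.23). Sel1l and Syvn1 encode the adaptor and the ligase of the same ubiquitin ligase complex. Sel1l was at 24.1 FPKM in each Cnot3 fl/fl library against 24.4 and 24.9 FPKM with Cnot3 +/+, with an interval of -0.22 to 0.16, whereas Syvn1 was at 38.9 and 42.0 against 46.1 and 58.6 FPKM (limma adjusted p = 0.15). Herpud1, which recruits that complex, was at 242.9 and 341.1 against 203.6 and 277.7 FPKM, a log2 fold change of 0.27 that did not pass (limma adjusted p = 0.45), and was higher in the library numbered 2 of each genotype. With 1 library left out it lay between 0.031 and 0.52, lowest without Cnot3 fl/fl replicate 2.

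In mm9, the build of the deposited files, Canx is listed on chromosome 11 from 50107458 to 50139175, Edem1 on chromosome 6 from 108778634 to 108809350 and Dnajc3 on chromosome 14 from 119337153 to 119380924. The files do not say if their starts are 0-based or 1-based. The ER stress response element (ERSE), the site of ATF6 with the factor NF-Y, was searched in the promoters as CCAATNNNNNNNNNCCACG on both strands. It was present in 8 of 30 members, Hspa5, Hsp90b1, Dnajc3, Creld2, Calr, Canx, Pdia6 and Syvn1, against 0.137% of 27025 genes and 0.157% of the tested ones. The related element ERSE-II, searched as ATTGG, any 1 base and CCACG, was present in Dnajb11 and Herpud1, against 0.0444% of genes, and shares its last 5 letters with ERSE. The XBP1 element, searched as TGACGTGG, was found in none of the 30. The 10 members with either ERSE form had mean levels of 46.4 to 653.5 FPKM and log2 fold changes of -0.67 to 0.27 with a median of -0.26, and the 15 members with neither these nor CARE had a median of -0.17. The element was thus present both in Canx and Dnajc3, which fell, and in Hspa5 and Calr, whose genotypes overlapped.

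The 250 bases before the start are shown for BiP and the 3 genes that fell, on GRCm38.p6 and in the direction of the gene, with the fixed letters of ERSE in capitals. Edem1 has no match in this window.
Hspa5, chr2:34771840-34772089, + strand: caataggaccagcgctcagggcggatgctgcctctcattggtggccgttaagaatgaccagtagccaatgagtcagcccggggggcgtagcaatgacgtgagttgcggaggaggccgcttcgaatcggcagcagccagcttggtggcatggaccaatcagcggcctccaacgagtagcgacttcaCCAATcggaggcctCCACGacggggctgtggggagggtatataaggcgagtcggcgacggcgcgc
Canx, chr11:50325674-50325923, - strand: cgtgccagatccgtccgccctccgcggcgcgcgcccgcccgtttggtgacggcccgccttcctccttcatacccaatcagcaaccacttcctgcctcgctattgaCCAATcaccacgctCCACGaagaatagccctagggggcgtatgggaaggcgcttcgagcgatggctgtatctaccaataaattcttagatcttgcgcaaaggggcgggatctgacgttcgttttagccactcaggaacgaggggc
Dnajc3, chr14:118937682-118937931, + strand: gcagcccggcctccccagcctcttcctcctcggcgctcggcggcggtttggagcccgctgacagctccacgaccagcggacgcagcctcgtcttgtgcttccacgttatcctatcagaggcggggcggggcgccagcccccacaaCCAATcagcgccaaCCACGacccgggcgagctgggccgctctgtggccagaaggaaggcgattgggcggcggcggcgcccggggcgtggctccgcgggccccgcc
Edem1, chr6:108828391-108828640, + strand: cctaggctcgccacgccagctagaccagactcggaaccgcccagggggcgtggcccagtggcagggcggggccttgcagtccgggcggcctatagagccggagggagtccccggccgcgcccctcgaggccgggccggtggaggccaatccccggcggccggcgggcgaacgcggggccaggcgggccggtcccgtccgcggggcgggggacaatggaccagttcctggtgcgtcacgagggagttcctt
The sites of the other members with ERSE are shown with 5 bases on either side, read in the direction of the element.
Hsp90b1, chr10:86705633-86705661: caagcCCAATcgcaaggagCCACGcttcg
Hsp90b1, chr10:86705528-86705556: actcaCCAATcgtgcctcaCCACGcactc
Creld2, chr15:88819515-88819543: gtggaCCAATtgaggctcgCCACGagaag
Calr, chr8:84847070-84847098: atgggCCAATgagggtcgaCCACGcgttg
Pdia6, chr12:17266486-17266514: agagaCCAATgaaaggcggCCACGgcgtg
Syvn1, chr19:6046527-6046555: cgcaaCCAATcggcggtagCCACGggaac

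Around the members, 7 lists of related genes held 154 tested genes, of which 4 rose and 12 fell (limma, adjusted p under 0.05), where 6.22% and 3.28% of all genes tested did. The genes that bring new proteins into the ER and glycosylate them held 10 of the 12 falls, in 31 tested genes of the translocon, signal peptidase and oligosaccharyltransferase, with a median log2 fold change of -0.35 and negative values in 30, where 51% of all genes tested were negative. The authors' deposited table marked Ssr1 and Spcs3 among these 10, and gave the other 8 q-values of 0.059 to 0.25. Ssr1, Ssr2 and Ssr3, subunits of the translocon-associated TRAP complex, fell from 35.8, 154.4 and 88.4 FPKM to 21.0, 107.3 and 62.5 FPKM. Sec61g, a subunit of the protein channel, fell from 4.92 to 1.95 FPKM, the signal peptidase genes Spcs3 and Sec11c from 65.0 and 274.4 to 39.5 and 186.2 FPKM, and the receptor subunit gene Srprb from 36.9 to 26.3 FPKM. Rpn1, Rpn2 and Ostc of the oligosaccharyltransferase fell from 71.1, 162.2 and 101.0 to 53.7, 112.2 and 70.4 FPKM. Srp68, a subunit of the signal recognition particle, rose from 63.9 to 93.2 FPKM, as the single gene of the list above 0. The locus given for Rpn2 overlaps that of Mroh8.

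Of 26 tested ER folding factors outside the members, 1 fell and none rose (at an unadjusted p, limma gave 0 higher and 12 lower, and the authors' deposited table marked none of them). It was Kdelr2, a receptor that returns escaped chaperones to the ER, at 21.3 against 30.8 FPKM (log2 fold change -0.51, limma adjusted p = 0.043). Among 15 stress transducers, Bcap31, an ER membrane protein gene of cargo export and cell death, fell from 100.2 to 71.5 FPKM, and Creb3, an ER-bound transcription factor gene, rose from 50.2 to 77.7 FPKM. The locus given for Creb3 covers Gba2, Msmp and Rgp1 too. The authors' deposited table gave q-values of 0.57 for Creb3 and 0.14 for Bcap31. None of 25 further degradation genes passed, with 1 higher and 3 lower at an unadjusted p in limma and 0 marked in the authors' deposited table. Their smallest p-values were those of Man1b1 and March6, with log2 fold changes of -0.31 and -0.27 (limma adjusted p = 0.087 and 0.097).

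On the translation side of the integrated stress response, Eif2b4, a subunit of the exchange factor eIF2B that phosphorylated eIF2 blocks, rose to 34.5 FPKM with Cnot3 fl/fl, against 19.0 FPKM (log2 difference 0.83, limma adjusted p = 0.024), as the 1 call among 17 genes of eIF2, its kinases and eIF2B. Of 20 cytosolic aminoacyl-tRNA synthetase genes, several of which ATF4 is known to drive, Sars rose to 48.9 FPKM, against 34.5 FPKM (log2 difference 0.49, limma adjusted p = 0.042) and 19 did not pass. The authors' deposited table gave q-values of 0.0079 for Eif2b4 and 0.10 for Sars. The log2 fold change was above 0 in 18 of the 20, with a median of 0.28, where 51% of all genes tested were below 0. Both Cnot3 fl/fl libraries lay above both Cnot3 +/+ libraries in 17, against 32.7% of all genes tested. None of 20 other tested ATF4 targets passed, with 2 higher and 4 lower at an unadjusted p in limma. Their smallest p-values were those of the sestrin gene Sesn2, at 21.7 and 26.0 against 13.6 and 16.8 FPKM, and the arginine transporter gene Slc7a1, at 8.53 and 8.12 against 11.1 and 10.7 FPKM, with limma adjusted p = 0.063 and 0.074. The authors' deposited table marked Sesn2 and the mTOR inhibitor gene Ddit4 as higher and Vegfa as lower, with q-values of 0.043, 0.0022 and 0.0022. Ddit4 was at 47.9 and 107.9 against 38.5 and 52.5 FPKM, with overlapping genotypes (limma adjusted p = 0.31). Vegfa was at 3.81 and 3.56 against 5.88 and 11.6 FPKM (limma adjusted p = 0.10). With any 1 library left out, limma called none of the 154 genes (12 to 23 higher and 17 to 44 lower at an unadjusted p).

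**Figure D4:**
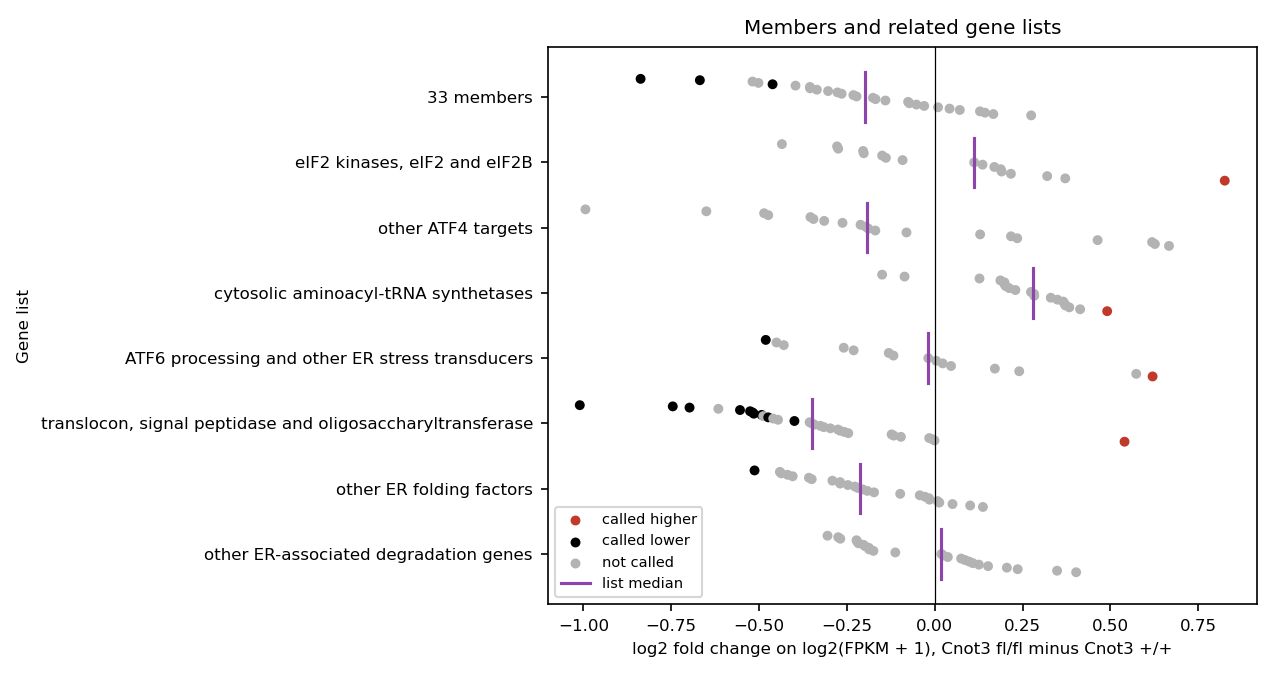
Log2 fold change on log2(FPKM + 1), Cnot3 fl/fl minus Cnot3 +/+, of each tested gene in the members and in 7 related lists; red marks genes called higher, black genes called lower, grey genes not called, and the purple bar the list median. The translocon list has 10 black points and a median of -0.35, and the tRNA synthetase list a median of 0.28.

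Markers of other cell types differed between the libraries too. Of the 12 plasmacytoid dendritic cell markers, Tlr7 rose, at 82.9 and 76.3 against 55.8 and 48.4 FPKM (limma adjusted p = 0.042). Cox6a2 fell, at 375.1 and 388.0 against 734.1 and 577.1 FPKM (limma adjusted p = 0.049). Without passing, Siglech, Tcf4 and Spib were lower and Klk1, Ccr9, Ly6c2 and Tlr9 higher in both Cnot3 fl/fl libraries. The genotypes overlapped in Bst2, Irf8 and Runx2. The 8 plasma cell markers were all detected and summed to 244.4 and 343.7 FPKM with Cnot3 fl/fl against 285.5 and 837.9 FPKM with Cnot3 +/+ (replicates 1 and 2) and Cnot3 +/+ replicate 2 had the highest sum. It was also the highest library for most tested members, among them Canx, Edem1, Hsp90b1, Hspa5 and Pdia4. The exceptions were Dnajc3, Herpud1, Atf5, Atf6, Ern1, Phgdh and Shmt2. The share of all genes tested that were highest in this library was not counted. The 1 plasma cell marker that passed, the syndecan gene Sdc1, fell, at 20.6 and 16.6 against 35.7 and 40.5 FPKM (limma adjusted p = 0.036), and was lower than in either Cnot3 +/+ library. None of the other plasma cell markers passed. Irf4 and Slamf7 had log2 fold changes of 0.40 and 0.20. Prdm1, Igj, Mzb1, Tnfrsf17 and Pou2af1 had log2 fold changes of -0.10, -1.10, -0.67, -0.57 and -0.41. Igj, the joining chain of antibodies, was at 388.9 FPKM in Cnot3 +/+ replicate 2 against 42.0 to 98.6 FPKM in the other libraries. Without that library Canx, Dnajc3 and Edem1 had log2 fold changes of -0.63, -0.47 and -0.63. The 10 classical dendritic cell markers summed to 5186 and 6354 FPKM with Cnot3 fl/fl against 2995 and 3392 FPKM with Cnot3 +/+, with 5 of 9 tested higher and Xcr1 under 1 FPKM in all. Of the neutrophil, monocyte and macrophage markers 4 of 12 tested rose, and the sums were 247.2 and 172.7 against 162.4 and 220.2 FPKM. T and NK cell markers summed to 1173 and 997.1 against 977.7 and 939.2 FPKM. Of 11 tested, Cd8b1 rose, at 166.9 and 187.6 against 33.4 and 61.0 FPKM (limma adjusted p = 0.040), and Klrd1, Ncr1 and Gzmb were higher in both Cnot3 fl/fl libraries without passing. The remaining T and NK cell markers did not pass either. Cd3d, Cd3e, Cd3g, Cd4, Ccl5 and Prf1 had log2 fold changes of -0.16, -0.19, -0.55, -0.44, -0.19 and -0.05, and Nkg7 had 0.02. Cd4 was lower in both Cnot3 fl/fl libraries, at 148.2 and 157.6 against 162.5 and 264.1 FPKM. Erythroid and megakaryocyte markers summed to 23.0 to 64.6 FPKM. Of the early B-lineage markers that did not pass, Dntt, Spn, Ptprc and Kit had both Cnot3 fl/fl libraries above both Cnot3 +/+ libraries, as did 32.7% of all genes tested. Their means were 249.2, 220.1, 271.5 and 6.17 against 216.6, 182.0, 242.1 and 3.69 FPKM. Cd79b, Ebf1, Vpreb2, Rag1 and Rag2 had both Cnot3 fl/fl libraries below both Cnot3 +/+ libraries, as did 31.7% of all genes tested. These genes had means of 169.5, 5.70, 2.71, 3.52 and 0.792 against 206.6, 18.8, 17.3, 12.2 and 3.09 FPKM. The genotypes overlapped in Il7r and Cd93. The part of the cells behind any of these markers in the differences of the ER genes was not tested.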

How the data were processed

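Polyadenylated RNA was sequenced from 4 libraries of sorted pro-B cells, 2 per genotype, with genotype and replicate number taken from the labels. Cuffnorm 2.2.1 and Cufflinks 2.2.1, TopHat2 2.0.13 with Bowtie2 2.2.3.0, bcl2fastq 1.8.4 and the build mm9 are listed in the submitters' processing notes, without roles. Annotation, use of strand and scaling: not given in the sources used here. Per the file headers, the authors deposited FPKM for each gene in each library, and a table of their own comparison that holds a p-value and a q-value for each gene.

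FPKM values are not counts, so the alternative planned for counts was not run. The log2 of FPKM + 1 was taken, and the 11017 genes whose mean reached 1 FPKM were fitted with limma 3.58.1 in R 4.3.3 (eBayes with trend, genotype as the only term, 2 residual and 2.69 prior degrees of freedom, two-sided, Benjamini-Hochberg over all genes tested, calls at adjusted p under 0.05). The fit was also run on simulated data with independent noise. Those data held no differences in cell mixture or between replicate numbers, so the run does not check the calls against these. Log2 fold changes are on this scale, which understates changes of low genes; percentages are of mean FPKM. An exact permutation test of 2 against 2 libraries cannot go below p = 0.333. Relative depth came from the commonest ratio of values under 0.3 FPKM (11.8% to 13.3% of such genes within 0.5%).

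The members and lists were chosen with earlier results of these data known. All members were named; from each related list every called gene was named, otherwise the 2 with the smallest p. The immediate-early and heat shock lists, the rule on replicate ratios and the naming of Ddit4 and Vegfa were added after values were seen. Intervals are 95% intervals of the fit. Other pseudocounts, filters, scalings, variance models, a replicate block and leaving out each library were tried. Of the early B-lineage markers first listed, 1 is not reported here and left out of the sums and counts.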

Additional observations from a re-analysis of the deposited data

How the results depend on the processing

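The members' count of lower calls, 3 in the reported fit, was 0 with no filter on low values (6 lower at an unadjusted p), 5 with quantile normalization, 5 with robust eBayes and 1 with eBayes without the trend. The additional calls in both settings that gave 5 were Hyou1 and Manf, and the 1 left without the trend was Canx. Higher calls among related genes were 0 with no filter, 1 without the trend and 10 with robust eBayes, and lower calls 0 and 2 with no filter and without the trend. With each library left out in turn, limma called 0 members and 0 related genes in either direction, with 5 to 10 members lower and at most 1 higher at an unadjusted p; each such fit had fewer samples. The members' median lay between -0.20 and -0.17 under the other 9 settings. Of 48 named genes, 47 kept their direction under those 9, the exception being Calr at 0.051 with quantile normalization. With a library left out the direction of 11 turned, all uncalled. Their log2 fold changes ranged from -0.70 to 0.37 for Ddit3, -0.87 to 1.01 for Ppp1r15a, -0.65 to 0.20 for Dnajb9, -0.40 to 0.42 for Hspa5, -0.27 to 0.13 for Creld2, -0.16 to 0.44 for Sdf2l1, -0.49 to 0.028 for Psat1, -0.017 to 0.35 for Phgdh, -0.043 to 0.13 for Atf6, -0.30 to 0.024 for Ern1 and -0.18 to 0.031 for Calr. Among members that kept direction, Syvn1 ranged from -0.52 to -0.19 and Pdia3 from -0.37 to -0.18. Where no construction of a setting shows it, the cause was not tested.

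The labels pair the libraries only by number. The differences between replicates 2 and 1 had a Pearson r of 0.14 between the genotypes across genes, which are not independent. With a replicate block 2 members were lower, Canx and Manf, with Dnajc3 and Edem1 at adjusted p = 0.052 in limma and Atf4 at 0.050, and 4 related genes were higher and 8 lower. Absolute depth is unknown, so the precision of the near-silent members cannot be stated.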

Other observations

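Among 7 cytosolic heat shock genes, a list chosen after values were seen, 6 were at least 1.5-fold higher in the library numbered 2 than in that numbered 1 in both genotypes, Hsph1 being the exception, and their summed level was 298.3 and 661.0 FPKM with Cnot3 fl/fl against 368.8 and 877.5 FPKM with Cnot3 +/+ (replicates 1 and 2). Hspa1b, an inducible HSP70 gene, was at 51.5 and 156.9 against 71.7 and 223.9 FPKM. Of the immediate-early genes, the AP-1 subunit gene Fos was at 403.4 and 1162 against 399.1 and 1037 FPKM, and the phosphatase gene Dusp1 at 82.6 and 343.9 against 72.0 and 352.7 FPKM. The widest gap was that of Atf3, a stress-induced factor that ATF4 also drives, at 1.63 and 45.7 against 0.852 and 26.8 FPKM. None of these 21 genes was called between the genotypes by limma.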
